A study of Mus musculus with 14 samples.

Results

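Interferon-stimulated genes were described as a set of 34 genes, taken by gene symbol from a deposited table of 57180 genes, in the livers of mice that carry different Pkd1 genotypes. All 34 symbols were found, and all 34 were among the 16201 genes that had enough counts to be tested. RNA was sequenced from whole liver of 14 littermates on normal chow, which the labels class as Pkd1 Homo (4 libraries), Pkd1 Het (4 libraries) and WT (6 libraries). Every label, WT included, carries the word Cre. The labels do not give the Pkd1 allele, the Cre driver, or the sex, age and litter of each mouse, and so leave unknown which liver cells carry an altered Pkd1. Pkd1 encodes polycystin, a large membrane protein of the primary cilium whose loss causes polycystic kidney and liver disease.

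Interferons are secreted proteins that cells release when their sensors detect viral or other misplaced nucleic acid. Type I interferons bind the receptor pair Ifnar1 and Ifnar2 and, through the kinases Jak1 and Tyk2, assemble a complex that includes Stat2 and Irf9 and binds the interferon-stimulated response element (ISRE) in target promoters. Interferon gamma binds Ifngr1 and Ifngr2 and acts on promoters through the gamma-activated site (GAS). Hepatocytes and Kupffer cells, the resident macrophages of the liver, both carry these receptors, and uninfected tissue keeps a low resting level of many target genes. In whole liver, fewer cells of a type and less RNA per cell cannot be told apart.

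Short promoter motifs were more frequent among the members than among all genes, and the choice of genes by symbol did not use sequence. RefSeq promoter windows (GRCm38.p6, 250 bases before to 50 bases after an annotated start, which is counted as base 0) were available for 26 of the 34 members, as 30 windows. The ISRE core was searched as GAAA, any 2 bases and GAAA, and the GAS as TTCNNNGAA, where N is any base, on both strands. The ISRE core was present in 14 of 30 member windows (46.7%), against 3.44% of the 32851 windows of all genes. The GAS was present in 7 of 30 member windows (23.3%), against 8.3% of all windows. Bst2, Gbp7, Igtp and Oas1a held both motifs, and in Bst2 and Igtp the matches to the GAS and to the ISRE core lie over or next to each other. Windows of Cmpk2, Dtx3l, Ifi44, Irf7, Irf9, Oasl1, Oasl2, Trim25 and Xaf1 held neither motif, and Dhx58, Ifi27, Iigp1, Oas2, Parp14, Parp9, Usp18 and Zbp1 were not searched. The elements below are written 5′ to 3′ on the strand of the gene, with the motif match in capitals, for the members on which the comparisons turn and for the best-known members of each role. They show that runs of GAAA (TTTC when read on the other strand) recur in genes of different function.
Isg15, ISRE core repeated, gene on the minus strand, chr4:156200860-156200911: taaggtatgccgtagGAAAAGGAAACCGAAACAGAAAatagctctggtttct
Oas1a, ISRE core repeated, gene on the minus strand, chr5:120907515-120907560: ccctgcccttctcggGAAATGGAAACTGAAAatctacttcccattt
Oas3, ISRE core, gene on the minus strand, chr5:120777710-120777749: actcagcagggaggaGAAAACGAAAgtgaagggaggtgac
Ifit1, ISRE core, gene on the plus strand, chr19:34640789-34640828: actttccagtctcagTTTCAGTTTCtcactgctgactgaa
Ifit3, ISRE core, gene on the plus strand, chr19:34583392-34583431: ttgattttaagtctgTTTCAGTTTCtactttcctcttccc
Bst2, ISRE core repeated, gene on the minus strand, chr8:71537572-71537617: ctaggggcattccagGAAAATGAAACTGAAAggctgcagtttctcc
Gbp2, ISRE core, gene on the plus strand, chr3:142620589-142620628: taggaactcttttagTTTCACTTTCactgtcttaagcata
Gbp7, ISRE core, gene on the plus strand, chr3:142530268-142530307: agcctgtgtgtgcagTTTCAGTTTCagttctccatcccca
Irgm1, ISRE core repeated, gene on the minus strand, chr11:48871420-48871465: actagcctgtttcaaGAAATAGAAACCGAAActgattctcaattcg
Igtp, ISRE core, gene on the plus strand, chr11:58199507-58199546: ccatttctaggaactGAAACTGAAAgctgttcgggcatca
Irf1, GAS, gene on the plus strand, chr11:53769909-53769947: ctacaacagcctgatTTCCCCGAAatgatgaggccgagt

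The positions of the matches within the window varied. In Isg15 the run of 3 overlapping ISRE cores spanned bases -78 to -57 from the start, and in Oas1a 2 overlapping cores spanned -20 to -5. In Irf1, the GAS lay at -90 to -82. Farther from the start were an ISRE core of Ifit3 at -156 to -147, that of Stat2 at -222 to -213 and the GAS of Ifit2 at -241 to -233. Such a match describes the letters in the window and says nothing of whether a factor binds there in these livers.

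Libraries held between 18573686 and 28431839 counts in Homo livers, between 22833800 and 26245428 in Het livers, and between 25238117 and 40925909 in WT livers. Levels are in CPM, a count rate relative to the effective size of each library, and a gene was called at an edgeR adjusted p under 0.05 over all genes tested. Pkd1 itself was lower in Homo livers, at 25.3 ± 1.51 CPM in Homo, 32.2 ± 3.52 CPM in Het and 34.8 ± 2.77 CPM in WT (SD, n = 4, 4 and 6), with an edgeR adjusted p of 0.0246 for Homo against WT. Of 10 listed hepatocyte markers, 9 were in the table and all of these were detected. Their summed level was 59190 to 85220 CPM in Homo, 60650 to 70790 CPM in Het and 61750 to 79310 CPM in WT libraries. The labels give each library its own mouse and call the mice littermates, without saying which mice share a litter or a batch.

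The interferons themselves were near or at the limit of detection. None of the 20 listed interferon genes had enough counts to be tested, and 15 of the 20 had a count of 0 in every library, Ifnb1 among them. Ifng had 14 counts over all 14 libraries. Its level was 0.198 CPM in Homo 1, 0.0348 CPM in WT 1, 0.0715 CPM in WT 2 and 0.122 CPM in WT 3, and it was 0 in the other 10 libraries, all 4 Het livers included. Receptors and signalling genes were expressed. Ifnar1, which with Ifnar2 forms the type I receptor, stood at 35.1 ± 1.49 CPM in Homo, 32.9 ± 3.27 CPM in Het and 33.0 ± 1.70 CPM in WT livers. Ifnar2 stood at 47.7 ± 4.29, 47.1 ± 3.62 and 49.5 ± 8.09 CPM in Homo, Het and WT livers. Of the gamma receptor chains, Ifngr1 stood at 13.8 ± 0.700 CPM in Homo, 13.7 ± 0.635 CPM in Het and 13.4 ± 1.24 CPM in WT, and Ifngr2 at 11.7 ± 0.978, 11.9 ± 2.89 and 14.3 ± 3.09 CPM in Homo, Het and WT. The receptor-bound kinase Jak1 had 132 ± 4.06 CPM in Homo, 137 ± 5.18 CPM in Het and 138 ± 5.57 CPM in WT livers. Its partner Tyk2 had 17.4 ± 1.19, 17.8 ± 2.65 and 18.1 ± 1.83 CPM. None of these 6 genes was called in any comparison.

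Resting levels of the members differed widely between genes and little between genotypes. Divided by exon length (GENCODE M21), the members had a median level of 4.50 CPM per kb in Homo, 4.36 CPM per kb in Het and 4.84 CPM per kb in WT livers. Bst2, which encodes tetherin, a protein that holds budding virus particles at the cell surface, was the highest at 121 CPM per kb in WT livers. Next came Iigp1, an immunity-related GTPase, at 52.3 CPM per kb, and Ifi27, a small mitochondrial protein, at 43.2 CPM per kb. The other 31 members lay at 13.8 CPM per kb (Dtx3l) or lower in WT livers. The lowest were Xaf1 at 0.857, Cmpk2 at 0.820 and Oas3 at 0.251 CPM per kb.

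**Figure D1:**
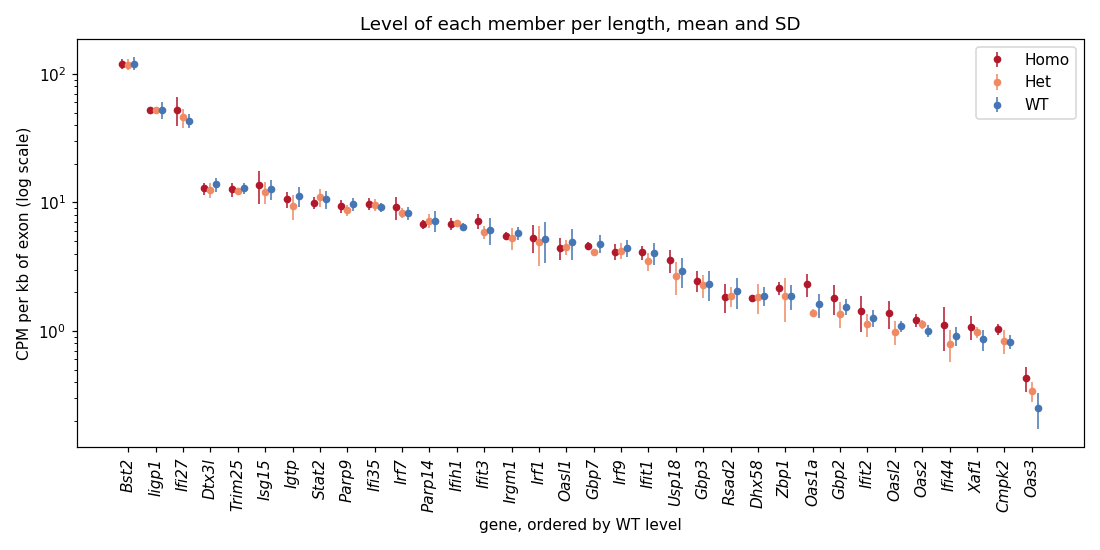
Level of each of the 34 members per kb of exon, in CPM per kb on a log scale, as mean (points) and SD (bars) over 4 Homo, 4 Het and 6 WT libraries, with genes ordered by WT level. Bst2, Iigp1 and Ifi27 stand above the others in every genotype, Oas3 stands lowest, and the 3 genotypes lie close together for most genes.

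The members with the most counts had close values in all 3 genotypes. Iigp1 had 304, 328, 298 and 299 CPM in Homo livers, 294, 309, 304 and 314 CPM in Het livers, and a lowest, median and highest value of 252, 298 and 386 CPM in WT livers. Bst2 had 97.3, 111, 119 and 104 CPM in Homo livers, 111, 113, 91.6 and 113 CPM in Het livers, and 92.9, 105 and 124 CPM (lowest, median, highest) in WT livers. For both genes the WT range enclosed or nearly enclosed all 8 libraries of the other genotypes. The fold of Homo over WT was 1.01 for Iigp1 (95% interval 0.879 to 1.16) and 0.988 for Bst2 (0.860 to 1.14). The fold of Het over WT was 1.00 for Iigp1 (0.873 to 1.15) and 0.981 for Bst2 (0.854 to 1.13).

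In Homo against WT livers, no member was called by edgeR, while 0.222% of all genes tested were (36 of 16201), and no member was called by DESeq2. The smallest edgeR adjusted p of a member was 0.827, for Oas3. At an unadjusted edgeR p under 0.05, 4 members were higher in Homo (Oas3, Oas1a, Oas2 and Cmpk2) and none lower, which is 4 of 34 against 2.64% of all genes higher at that threshold. DESeq2 also had 4 members at an unadjusted p under 0.05, but its share of all genes at that threshold was not taken. For no member did the Homo libraries lie wholly above the WT libraries, against 0.735% of all genes, and for none wholly below, against 0.420%. Of the 34 members, 21 had a log2 fold change above 0 (61.8%), against 50.6% of all genes, and the median log2 fold change was 0.08 (range -0.15 to 0.76), against 0.0022 over all genes. That count was 27 of 34 without WT 5 and 18 of 34 without WT 3, and the median was 0.02 without Homo 2 and 0.14 without Homo 4.

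In Het against WT livers, no member was called by edgeR, while 0.0556% of all genes were (9 of 16201). No member was called by DESeq2, and none had an unadjusted p under 0.05 by either tool, against 4.67% of all genes with edgeR. The smallest edgeR adjusted p of a member was 0.998. Of the 34 members, 12 had a log2 fold change above 0 (35.3%), against 50.0% of all genes, with a median of -0.07 (range -0.26 to 0.42). Without Het 3 the count was 18 of 34 and the median 0.0039, without Het 2 the count was 7 of 34, and without Het 1 the median was -0.11. No member was wholly higher or lower in the Het libraries than in the WT libraries, against 0.697% of all genes wholly higher and 0.506% wholly lower.

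In Homo against Het livers, no member was called by edgeR, while 0.0309% of all genes were (5 of 16201), and no member was called by DESeq2. Oas1a and Oasl2 had an unadjusted edgeR p under 0.05, both higher in Homo (5.88% of members), against 2.73% of all genes. DESeq2 had 3 such members, without a share of all genes to set beside them. The smallest adjusted p was 0.916 with edgeR and 0.271 with DESeq2. The Homo libraries lay wholly above the Het libraries for Oas1a and Gbp7, against 1.42% of all genes, and for no member wholly below, against 1.52%. Of the 34 members, 27 had a log2 fold change above 0 (79.4%), against 50.5% of all genes, with a median of 0.13 (range -0.13 to 0.74). That count was 23 of 34 without Homo 3, 30 of 34 without Homo 4 and 32 of 34 with scaling by library total alone. The median was 0.07 without Het 3 and 0.18 without Het 1. The comparisons share libraries, so their member counts are not separate observations.

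With the genotypes coded as steps of 0, 1 and 2 (WT, Het, Homo), no member followed the trend at the edgeR threshold, while 0.185% of all genes did (30 of 16201), and DESeq2 called none either. Unadjusted p-values under 0.05 were found for 4 members with edgeR, against 4.72% of all genes. With DESeq2 they were found for 3 members, and the share of all genes was not taken. The slope was above 0 for 20 of 34 members (58.8%), against 50.8% of all genes. The smallest edgeR adjusted p was 0.731, for Oas3.

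**Figure D2:**
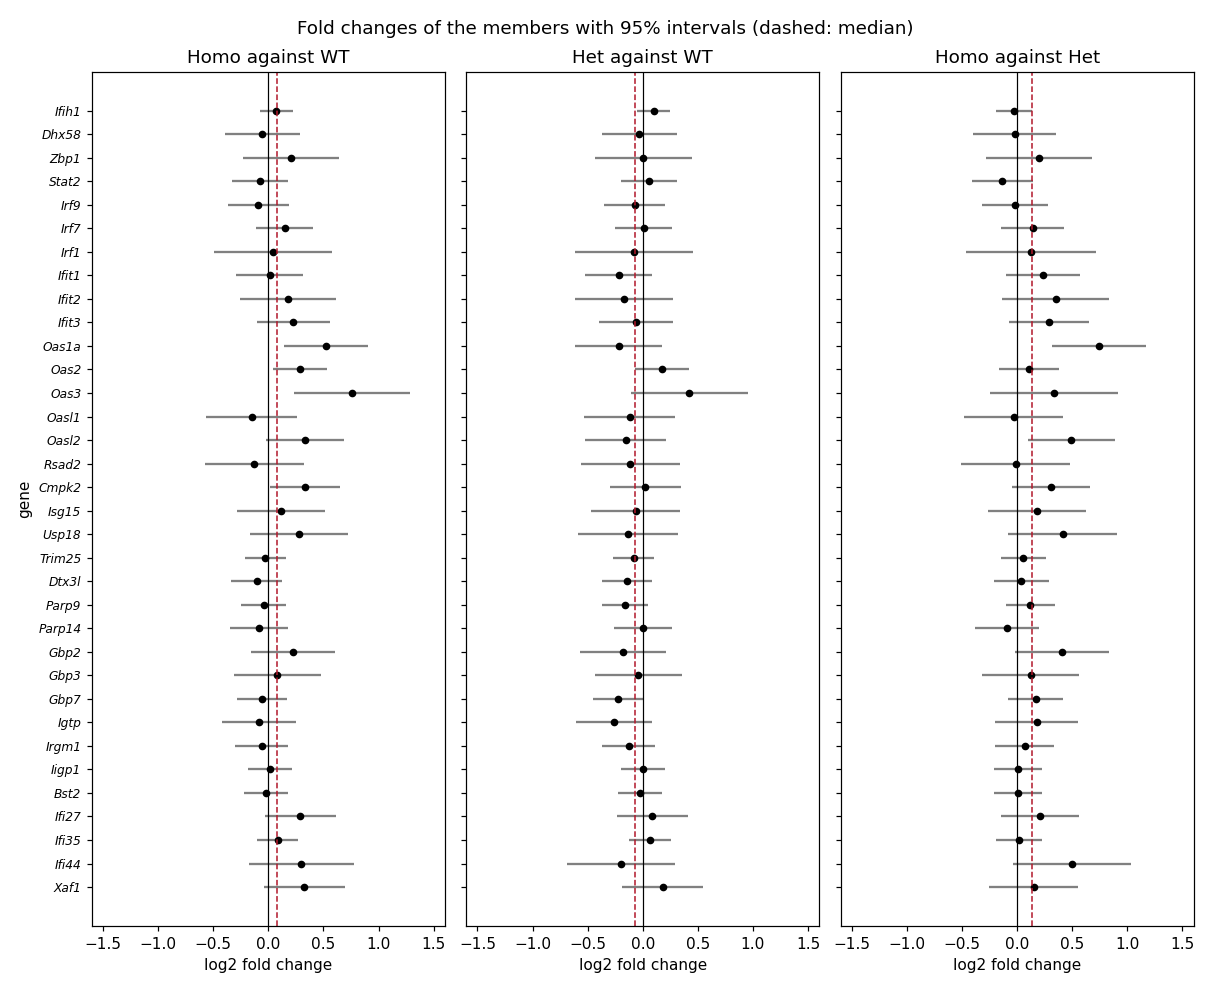
Log2 fold change of each member (points) with its 95% interval (grey lines) from the edgeR fit over 14 libraries, for Homo over WT, Het over WT and Homo over Het, with genes grouped by role. The dashed lines mark the member medians of 0.08, -0.07 and 0.13, and most intervals cross 0.

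The members closest to the threshold were oligoadenylate synthetases, enzymes that make oligoadenylates on binding double-stranded RNA. Oas3, a synthetase that acts on long double-stranded RNA, had 2.28, 2.66, 3.59 and 3.57 CPM in Homo livers, 2.17, 2.77, 2.71 and 1.90 CPM in Het livers, and 0.776, 1.93 and 2.42 CPM (lowest, median, highest) in WT livers. Of the 4 Homo libraries, 3 lay above the highest WT library, and the WT group held a low library, WT 6. The fold of Homo over WT was 1.69 (95% interval 1.17 to 2.44), with an exact two-sided permutation p of 0.0238. Its fold of Het over WT was 1.34 (0.926 to 1.94). Without WT 6 the log2 fold change of Homo over WT was 0.61, against 0.76 with all libraries. Exact p-values here and below are unadjusted. They come from the same libraries whose edgeR p picked these members, and so are no separate support.

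Oas1a had 4.69, 5.23, 4.27 and 3.18 CPM in Homo livers, 2.75, 2.41, 2.75 and 2.5 CPM in Het livers, and 1.91, 3.16 and 3.68 CPM (lowest, median, highest) in WT livers. Homo 1, 2 and 3 lay above every WT library, Homo 4 lay within the WT range, and all 4 Homo libraries lay above all 4 Het libraries. The Homo livers had 1.44 times the WT level (95% interval 1.10 to 1.88), with an exact permutation p of 0.0381, and 1.67 times the Het level (1.24 to 2.25). The exact permutation p for Homo against Het was 0.0286, the smallest that 4 against 4 libraries allow. The Het mean, 2.6 ± 0.175 CPM, was below the WT mean of 3.03 ± 0.639 CPM by less than the WT spread. Oas1a lies in a cluster of related Oas1 genes on chromosome 5, and estimated counts can be split between the closest of them. Per kb of exon, Oas1a had 2.30, 1.38 and 1.61 CPM in Homo, Het and WT livers, and Oas1g had 0.663, 0.858 and 0.595 CPM. Oas1g and Oas1c were thus highest in Het, where Oas1a was lowest, while Oas1b was highest in Homo. Whether counts were split was not tested.

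Oas2 had 4.85, 4.94, 6.12 and 5.82 CPM in Homo livers, 5.43, 4.69, 4.70 and 5.30 CPM in Het livers, and 3.80, 4.41 and 5.25 CPM (lowest, median, highest) in WT livers. The Homo libraries reached above the WT range in Homo 3 and Homo 4, while Homo 1 and Homo 2 lay within it. Its fold of Homo over WT was 1.22 (95% interval 1.03 to 1.45) with an exact permutation p of 0.0286, and its fold of Het over WT was 1.13 (0.951 to 1.34). Oasl2, a further synthetase, had 8.91, 10.8, 9.60 and 5.66 CPM in Homo livers, 6.76, 4.32, 6.53 and 7.32 CPM in Het livers, and 5.91, 6.94 and 7.85 CPM in WT livers. Homo 1, 2 and 3 again lay above every WT library and Homo 4 lay below every one. The fold was 1.26 for Homo over WT (0.985 to 1.61) and 1.41 for Homo over Het (1.07 to 1.85). Oasl1, which in mice restrains translation of Irf7 mRNA, had 11.8, 9.03, 14.5 and 10.8 CPM in Homo livers, 12.9, 9.51, 12.2 and 12.5 CPM in Het livers, and 7.60, 12.6 and 16.8 CPM in WT livers. All 8 Homo and Het libraries lay within its WT range, with a fold of Homo over WT of 0.901 (0.677 to 1.20).

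**Figure D3:**
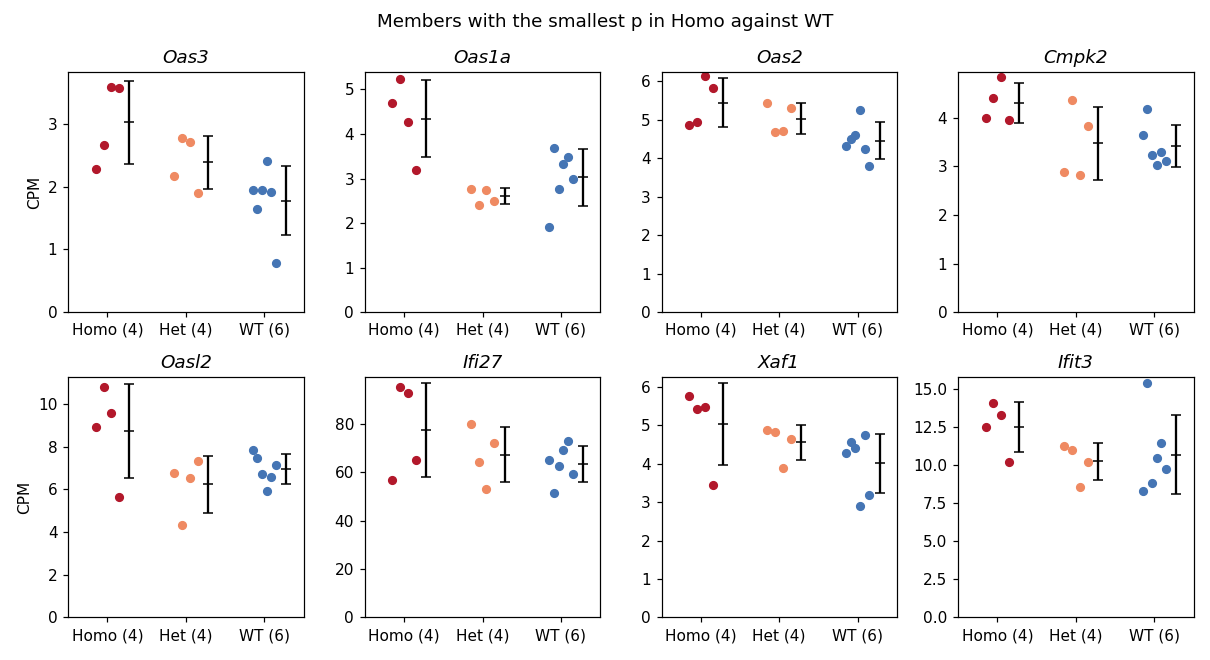
CPM per library (points) with mean and SD (bars) for the 8 members whose edgeR p was smallest between Homo and WT, in 4 Homo, 4 Het and 6 WT libraries. Oas3 and Oas1a reach above the WT range in 3 of 4 Homo libraries each, and Homo and WT libraries overlap for all 8 genes.

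The other effectors that act on RNA or nucleotides overlapped between genotypes. Cmpk2, a mitochondrial nucleotide kinase, had 4.00, 4.41, 4.84 and 3.95 CPM in Homo livers, 2.88, 4.37, 2.83 and 3.83 CPM in Het livers, and 3.03, 3.26 and 4.18 CPM (lowest, median, highest) in WT livers. Homo 2 and Homo 3 lay above the WT range and the other 2 Homo livers near its upper end, with a fold of Homo over WT of 1.26 (95% interval 1.01 to 1.57) and an exact permutation p of 0.0191. Rsad2 encodes viperin, which makes a chain-terminating nucleotide. It had 6.37, 7.56, 11.0 and 7.14 CPM in Homo livers, 6.97, 10.1, 7.01 and 8.44 CPM in Het livers, and 5.16, 9.21 and 11.8 CPM in WT livers. All Homo and Het libraries lay within the WT range for Rsad2, whose fold of Homo over WT was 0.916 (0.671 to 1.25).

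The Ifit genes encode proteins that bind viral RNA. Ifit1, which recognises foreign caps, had 10.1, 10.8, 12.7 and 9.83 CPM in Homo livers, 8.64, 11.4, 8.00 and 8.96 CPM in Het livers, and 8.48, 10.5 and 14.3 CPM (lowest, median, highest) in WT livers. Ifit3, its partner, had 12.5, 14.1, 13.3 and 10.2 CPM in Homo livers, 11.2, 11.0, 8.56 and 10.2 CPM in Het livers, and 8.27, 10.1 and 15.4 CPM in WT livers. The Homo libraries lay within the WT range for both genes, and 1 Het library, Het 3, lay below it for Ifit1. The fold of Homo over WT was 1.01 for Ifit1 (95% interval 0.817 to 1.24) and 1.17 for Ifit3 (0.932 to 1.47). Ifit2 averaged 5.59 ± 1.76 CPM in Homo, 4.41 ± 0.885 CPM in Het and 4.97 ± 0.776 CPM in WT livers. Ifit3 has a near-identical copy, Ifit3b, between which counts can be split.

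The sensors of viral nucleic acid had close group means. Ifih1, which encodes the RNA sensor MDA5, averaged 55.7 ± 5.63 CPM in Homo, 56.7 ± 1.69 CPM in Het and 53.0 ± 3.35 CPM in WT livers, and it had the smallest spread of any member among WT livers. Dhx58, which encodes the related protein LGP2, averaged 5.91 ± 0.283 CPM in Homo, 6.01 ± 1.55 CPM in Het and 6.15 ± 1.05 CPM in WT livers. Zbp1, a sensor of Z-form nucleic acid, averaged 7.59 ± 0.935, 6.62 ± 2.47 and 6.58 ± 1.46 CPM in Homo, Het and WT livers. Group means differed by less than 1 SD of the WT libraries for Dhx58 and Zbp1, and by a little more for Het against WT in Ifih1.

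Among the transcription factors, Irf1 had the largest spread between WT livers of any member (SD 0.47 of log2 CPM), beside a median SD of 0.23 over the members and 0.20 over all genes. Irf1 had 21.9, 28.1, 18.7 and 16.0 CPM in Homo livers, 29.6, 16.6, 16.4 and 15.3 CPM in Het livers, and 13.4, 17.4 and 31.4 CPM (lowest, median, highest) in WT livers. Each genotype held a high and a low liver, and the fold of Homo over WT was 1.03 (95% interval 0.711 to 1.5). Irf7, the factor that amplifies type I interferon production, averaged 34.6 ± 7.12 CPM in Homo, 31.4 ± 2.76 CPM in Het and 31.2 ± 3.77 CPM in WT livers. Irf9 averaged 22.3 ± 3.13, 22.6 ± 3.29 and 23.8 ± 3.71 CPM, and Stat2 averaged 59.1 ± 6.24, 64.9 ± 10.0 and 62.4 ± 9.64 CPM, in Homo, Het and WT livers. These 2 subunits of the ISRE-binding complex differed between genotypes by less than their SD among WT livers.

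Isg15 encodes a ubiquitin-like protein that is attached to other proteins during an interferon response. It averaged 10.3 ± 2.95 CPM in Homo, 9.14 ± 1.84 CPM in Het and 9.54 ± 1.71 CPM in WT livers. Usp18, the protease that removes Isg15 and damps signalling at the type I receptor, had 9.04, 11.8, 11.3 and 7.41 CPM in Homo livers, 9.77, 8.46, 4.82 and 6.81 CPM in Het livers, and 6.51, 7.62 and 12.4 CPM (lowest, median, highest) in WT livers. Het 3 was below all other libraries for Usp18 and WT 5 above them. The fold was 1.22 for Homo over WT (95% interval 0.891 to 1.66) and 1.33 for Homo over Het (0.943 to 1.88). Trim25, a ubiquitin ligase that also conjugates Isg15, had 67.5, 63.0, 82.6 and 78.6 CPM in Homo livers, 66.3, 71.7, 66.7 and 76.0 CPM in Het livers, and 65.2, 73.9 and 85.3 CPM in WT livers. All libraries but Homo 2 lay within the WT range for Trim25, and its fold of Homo over WT was 0.981 (0.862 to 1.12).

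Parp9 and Dtx3l encode partners in an ADP-ribose and ubiquitin transfer complex. Parp9 had 42.2, 48.3, 52.0 and 40.6 CPM in Homo livers, 40.9, 43.8, 37.4 and 46.8 CPM in Het livers, and 42.4, 45.4 and 56.8 CPM (lowest, median, highest) in WT livers. Dtx3l had 72.2, 75.5, 83.2 and 63.5 CPM in Homo livers, 69.0, 79.1, 59.9 and 78.8 CPM in Het livers, and 68.1, 75.5 and 97.0 CPM in WT livers. Het 3 was the lowest and WT 5 the highest of all 14 livers for both genes. The fold of Het over WT was 0.894 for Parp9 (95% interval 0.775 to 1.03) and 0.905 for Dtx3l (0.771 to 1.06). Exons of Parp9 and Dtx3l overlap by 458 bases on opposite strands, and with strand use not given in the sources used here, reads there cannot be assigned to either gene. Parp14, a further ADP-ribosyltransferase, averaged 63.0 ± 5.13, 67.2 ± 8.86 and 67.0 ± 12.3 CPM in Homo, Het and WT livers.

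Guanylate-binding proteins (Gbp) and immunity-related GTPases are targets mainly of interferon gamma and attack the vacuoles of intracellular microbes. Gbp7 had 28, 24.6, 24.3 and 26.1 CPM in Homo livers, 24.3, 21.8, 21.4 and 24.3 CPM in Het livers, and 20.1, 27.6 and 32.0 CPM (lowest, median, highest) in WT livers. Its Homo libraries all lay above its Het libraries by a narrow margin, and all of them lay within the WT range. The fold was 0.855 for Het over WT (95% interval 0.730 to 1.00) and 1.12 for Homo over Het (0.944 to 1.33), with an exact permutation p of 0.0286. Gbp2 had 6.17, 4.00, 4.38 and 3.51 CPM in Homo livers, 3.00, 4.59, 3.11 and 3.02 CPM in Het livers, and 3.27, 3.70 and 4.79 CPM in WT livers. Homo 1 was its highest library, and its fold of Homo over Het was 1.32 (0.986 to 1.78). Gbp3 averaged 8.02 ± 1.49, 7.39 ± 1.46 and 7.59 ± 1.99 CPM in Homo, Het and WT livers. Igtp had 22.7, 17, 24.2 and 21.5 CPM in Homo livers, 19.3, 23.9, 13.7 and 18.7 CPM in Het livers, and 17.3, 22.9 and 27.6 CPM in WT livers. Het 3 and, by a narrow margin, Homo 2 lay below the WT range for Igtp, with a fold of Het over WT of 0.835 (0.659 to 1.06). Irgm1, which regulates other members of this GTPase family, averaged 32.0 ± 2.5, 30.5 ± 5.96 and 33.4 ± 3.80 CPM in Homo, Het and WT livers. Gene families with close copies, these GTPases among them, can share reads.

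The remaining targets include Ifi27, which had 57.0, 95.5, 93.0 and 65.0 CPM in Homo livers, 80.0, 64.5, 53.1 and 72 CPM in Het livers, and 51.4, 64.1 and 72.8 CPM (lowest, median, highest) in WT livers. Homo 2 and Homo 3 stood above the other libraries, and the fold of Homo over WT was 1.22 (95% interval 0.979 to 1.53). Xaf1, an antagonist of the apoptosis inhibitor XIAP, had 5.78, 5.43, 5.48 and 3.46 CPM in Homo livers, 4.88, 4.82, 3.90 and 4.65 CPM in Het livers, and 2.92, 4.34 and 4.76 CPM in WT livers. Homo 1, 2 and 3 lay above all WT libraries and Homo 4 within their range, with a fold of 1.26 (0.975 to 1.62). Ifi44 had 6.11, 10.5, 6.46 and 4.39 CPM in Homo livers, 6.09, 5.91, 3.23 and 4.22 CPM in Het livers, and 4.52, 5.52 and 6.60 CPM in WT livers. Homo 2 alone lay above the WT range, and the fold of Homo over Het was 1.41 (0.976 to 2.05). Ifi35 averaged 16.8 ± 1.76, 16.6 ± 1.80 and 15.8 ± 1.19 CPM in Homo, Het and WT livers.

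**Figure D4:**
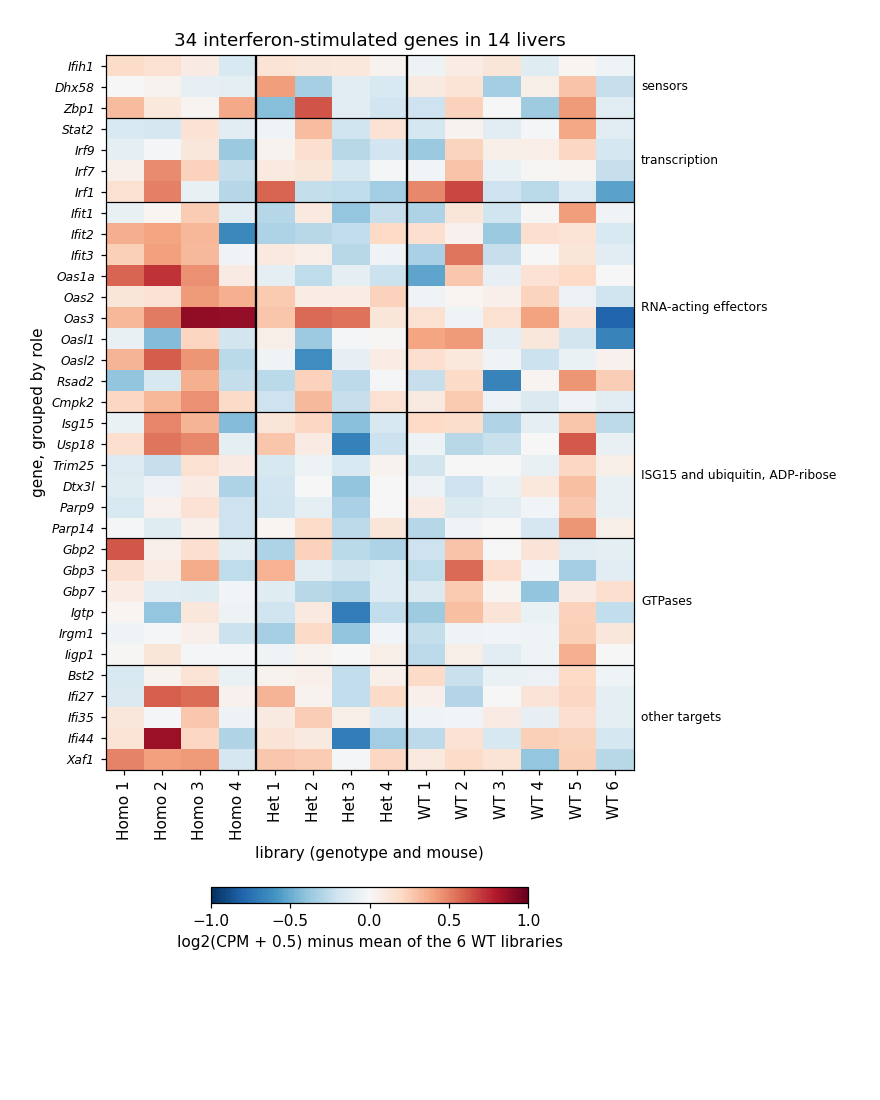
Each square is log2(CPM + 0.5) of a member in a library minus the mean of the 6 WT libraries, with genes in rows grouped by role and the 4 Homo, 4 Het and 6 WT libraries in columns. Oas1a and Oas3 lie above the WT mean in all 4 Homo columns, while WT 5 lies above it and Het 3 below it over rows of several roles.

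Variation between individual livers ran across members of different roles. WT 5 was the highest of the 14 libraries for 11 of the 34 members, which were Ifit1, Rsad2, Usp18, Stat2, Bst2, Parp9, Parp14, Dtx3l, Trim25, Irgm1 and Iigp1. Homo 2 was highest for 7 members, Oas1a, Oasl2, Irf7, Isg15, Ifit2, Ifi27 and Ifi44, and WT 2 was highest for another 7. Het 3 was the lowest library for 10 members, Usp18, Cmpk2, Igtp and Irgm1 among them. The share of all genes for which each library was highest or lowest was not taken. These counts therefore cannot tell a trait of the members from one of the whole library. The mean log2(CPM + 0.5) over the 34 members was 4.13, 4.21, 4.27 and 3.94 in the Homo libraries, 4.05, 4.09, 3.83 and 3.99 in the Het libraries, and 3.91 to 4.21 in the WT libraries. Homo 3 was thus the highest library by this mean and Het 3 the lowest, and the other Homo and Het libraries lay within the WT range or at its upper edge. The genotype means were 4.14 ± 0.14 in Homo, 3.99 ± 0.12 in Het and 4.04 ± 0.12 in WT (SD).

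Markers of immune cells were read in the same libraries. Of 12 Kupffer cell markers, 10 had a log2 fold change above 0 in Homo against WT (median 0.19), beside 50.6% of all genes. None was called by edgeR or lay at 0, and 4 were higher at an unadjusted p under 0.05, beside 2.64% of all genes. Their summed level was 312 to 336 CPM in Homo, 268 to 330 CPM in Het and 268 to 320 CPM in WT libraries. Of 18 lymphocyte and natural killer cell markers, 7 had enough counts to be tested. In Homo against WT, 6 of those 7 were above 0, none was called by edgeR and 1 was higher at an unadjusted p under 0.05. The shares of all genes are the same 50.6% and 2.64%. The summed level of these 7 was 34.1 to 42.9 CPM in Homo, 32.5 to 36.6 CPM in Het and 18.8 to 32.6 CPM in WT libraries. Most of this sum was the T cell gene Cd3e, at 18.5 ± 3.43 CPM in Homo, 16.9 ± 1.41 CPM in Het and 11.7 ± 3.87 CPM in WT livers, and the general leukocyte gene Ptprc, at 15 ± 1.03, 13.8 ± 1.36 and 13.2 ± 1.51 CPM. Per kb of exon, Cd3e had 4.525, 4.13 and 2.87 CPM in Homo, Het and WT livers. The other Cd3 genes were far lower. Cd3d had 0.084, 0.052 and 0.086 CPM per kb, and Cd3g had 0.11, 0.12 and 0.099 CPM per kb. How far the Cd3e level reflects T cells was not tested. Of the other T and natural killer cell genes, Cd4 shared the order of Cd3e, at 0.636, 0.630 and 0.530 CPM per kb in Homo, Het and WT livers. The means of Cd3g, Klrd1, Nkg7, Eomes and Tbx21 were higher in Homo than in WT, with Het outside the order. The remaining genes of these cells were lower in Homo than in WT. Cd8a had 0.201 ± 0.134 CPM in Homo, 0.225 ± 0.0495 CPM in Het and 0.227 ± 0.126 CPM in WT livers, and the means of Cd3d, Cd8b1, Ncr1, Klrb1c, Gzma and Gzmb were likewise lower in Homo than in WT, each under 1 CPM. Other immune cell lists were mixed in Homo against WT. Of the tested monocyte and dendritic cell markers, 6 of 8 were above 0 (median 0.15). For plasmacytoid dendritic cells it was 3 of 5 (median 0.05), and for neutrophils 1 of 3 (median -0.70). None of these markers was called by edgeR, and the summed neutrophil level was low, at 1.59 to 3.23 CPM in Homo and 1.19 to 5.91 CPM in WT libraries. The part of these immune cells in the levels of the members was not tested.

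**Figure D5:**
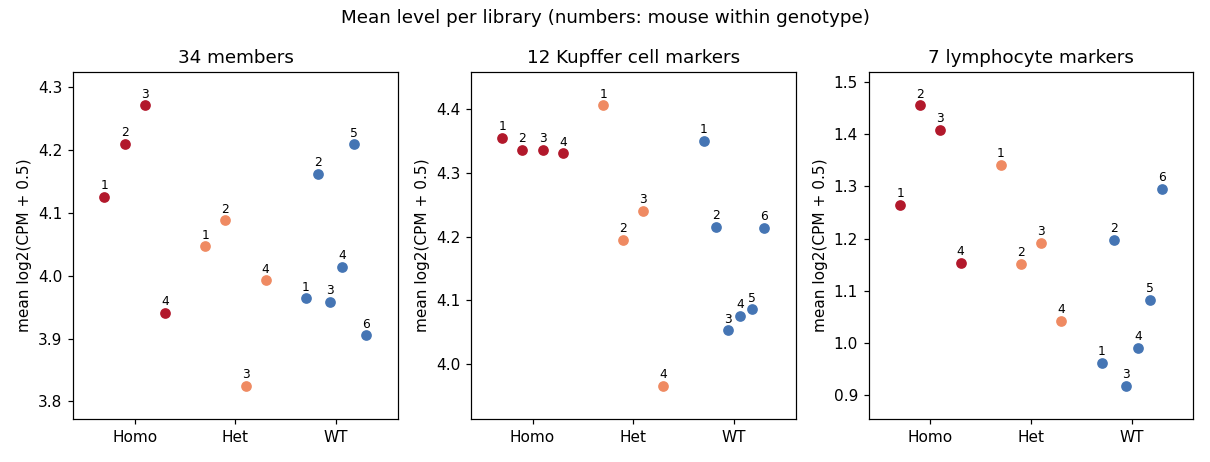
Mean log2(CPM + 0.5) per library over the 34 members, over 12 Kupffer cell markers and over 7 lymphocyte markers, with points numbered by mouse within the Homo, Het and WT groups. For the members, Homo 3 is highest at 4.27 and Het 3 lowest at 3.83, and the groups overlap in all 3 panels.

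Other genes of the pathway were read from lists that go beyond the members. They held 13 signalling genes, 5 tested receptor genes, 20 sensing genes, and 13 negative regulators and related genes such as Ube2l6. They also held 59 other interferon-stimulated genes and 31 gamma-induced GTPases and chemokines. None of these genes was called in Homo or in Het against WT by edgeR. Of the 59 other interferon-stimulated genes, 42 had a log2 fold change above 0 in Homo against WT (median 0.08), and 29 had one in Het against WT (median -0.01), beside 50.6% and 50.0% of all genes. Of the signalling genes, Stat3 had the smallest p between Homo and WT. It stood at 79.3 ± 3.98 CPM in Homo, 113 ± 21.7 CPM in Het and 99.4 ± 22.6 CPM in WT livers. Tor3a, among the other interferon-stimulated genes, had 5.35 ± 0.942 CPM in Homo, 3.98 ± 1.13 CPM in Het and 3.82 ± 0.301 CPM in WT livers, with an edgeR adjusted p of 0.893. All its Homo libraries lay above all WT libraries, which held for 1 of the 59 genes, against 0.735% of all genes.

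None of the next genes of each list by p between Homo and WT was called by edgeR. Among receptors, Il10rb, a chain of the interferon lambda receptor, had 4.66 ± 0.432 CPM in Homo, 5.09 ± 0.812 CPM in Het and 3.65 ± 1.43 CPM in WT livers. Among signalling genes, Stat4 had 0.219 ± 0.126, 0.182 ± 0.0932 and 0.442 ± 0.232 CPM, and Irf8, a factor of macrophages and dendritic cells, had 8.07 ± 1.04, 8.87 ± 0.894 and 6.91 ± 1.31 CPM in Homo, Het and WT livers. Among the adaptors of nucleic acid sensing, Ticam1 had 20.2 ± 2.51 CPM in Homo, 19.0 ± 3.02 CPM in Het and 17.4 ± 2.44 CPM in WT livers. Mavs, another adaptor, had 84.0 ± 3.05, 87.2 ± 7.26 and 90.9 ± 8.04 CPM in Homo, Het and WT livers. Socs1 and Socs3 inhibit receptor kinases. Socs1 had 0.405 ± 0.179, 0.563 ± 0.323 and 0.646 ± 0.461 CPM, and Socs3 had 6.85 ± 2.95, 13.2 ± 7.99 and 10.3 ± 8.23 CPM, in Homo, Het and WT livers. Ifi30, a thiol reductase of antigen processing, had 10.1 ± 0.642 CPM in Homo, 8.69 ± 0.742 CPM in Het and 8.86 ± 0.509 CPM in WT livers. Lgals3bp had 77.1 ± 17.1, 65.8 ± 6.06 and 63.1 ± 4.98 CPM, and Gbp8 had 5.54 ± 2.04, 5.02 ± 1.14 and 3.56 ± 0.647 CPM, in Homo, Het and WT livers.

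The listed genes nearest to a call were Gbp11, Gbp9 and Ube2l6. Gbp11, a guanylate-binding protein, averaged 70.3 ± 42.9 CPM in Homo, 75.0 ± 15.5 CPM in Het and 17.8 ± 10.6 CPM in WT livers. Its log2 fold change was 1.98 ± 0.46 (SE) in Homo against WT and 2.07 ± 0.46 in Het against WT, with edgeR adjusted p-values of 0.231 and 0.283. All Het libraries (54.0 to 87.7 CPM) lay above all WT libraries (6.04 to 35.7 CPM), while the Homo libraries ran from 18 to 118 CPM and overlapped WT. Het libraries wholly above WT were found for 1 of the 31 gamma-induced genes, against 0.697% of all genes. Per kb of exon, Gbp11 had 26.1, 27.85 and 6.62 CPM in Homo, Het and WT livers. Of its relatives, Gbp10 had 5.12, 4.61 and 3.99 CPM per kb, while Gbp6 went the other way, at 1.635, 1.20 and 2.20 CPM per kb. Whether counts were split between Gbp genes was not tested. Ube2l6, the enzyme that passes Isg15 to its ligases, averaged 34.5 ± 2.73 CPM in Homo, 34 ± 1.02 CPM in Het and 28.1 ± 2.89 CPM in WT livers, with an edgeR adjusted p of 0.398 in Homo against WT. Gbp9 averaged 11.2 ± 1.62 CPM in Homo, 9.41 ± 1.07 CPM in Het and 8.17 ± 1.07 CPM in WT livers, with an adjusted p of 0.395 for Homo against WT in the same fit.

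Fold changes were also set beside the promoter motifs. The median log2 fold change was 0.04 for Homo over WT, -0.09 for Het over WT and 0.17 for Homo over Het among the 14 members with the core. For the 12 members whose window lacked it, the medians were 0.12, -0.08 and 0.13 in the same comparisons. The difference between the motif groups was not tested.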

How the data were processed

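The authors deposited estimated counts per gene for 14 liver libraries, for which the submitters' processing notes list STAR, Salmon and the build GRCm39, with RNA taken by Trizol and RNeasy and NuGen libraries, per the labels' protocols. No source used here gives versions, annotation release or strand use. Between 6.36% and 8.59% of values per library were not whole (tolerance 0.01), and counts were rounded. Here, genes were filtered with filterByExpr (count minimum 10, total minimum 15), scaled by TMM and fitted over all 14 libraries with the quasi-likelihood test of edgeR 4.0.16 in R 4.3.3 (two-sided), with Benjamini-Hochberg adjustment over 16201 genes. DESeq2 1.42.0 was an alternative. Standard errors came from the fold change and its F statistic. Single members were also tested by exact two-sided permutation of log2(CPM + 0.5), whose smallest p is 0.00476 for 4 against 6 libraries. No library pair held identical values. P-values measure the spread between these mice.

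The members and gene lists were chosen with earlier results of these data known. Members given library by library (WT as lowest, median and highest) were those of smallest p (8 for Homo over WT, 6 in each other comparison), the 4 with the largest WT spread and the 4 most abundant. Of each pathway list, the 3 genes of smallest p between Homo and WT are named, beside core receptor and kinase genes. Some genes that this rule picks are not reported here. Exon lengths and chromosomes came from GENCODE M21 (GRCm38), not the build of the table, and matched 34 of 34 members. Promoter windows came from RefSeq (GRCm38.p6). Libraries with the same replicate number did not deviate together across genotypes (3 of 12 pairs had a correlation over 0.1), so no pairing was used.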

Additional observations from a re-analysis of the deposited data

Results flagged for a closer look

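Within each genotype, a library was singled out where its gap to the nearest other library was large beside the range of the group (Dixon's 95% limit). This held for 10 of 102 combinations of member and genotype, and chance gives about 1 in 20. No explanation was tested.

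Homo 4 stood low in Ifit2, at 2.96 CPM against 6.31 CPM in the next Homo library, and low in Xaf1, at 3.46 CPM against 5.43 CPM. Homo 3 stood high in Stat2, at 68.4 CPM against 57.3 CPM in the next Homo library. Het 4 stood high in Ifit2, at 5.73 CPM against 4.06 CPM in the next Het library. Het 1 stood high in Irf1, at 29.6 CPM against 16.6 CPM, and in Gbp3, at 9.56 CPM against 6.87 CPM. Het 2 stood high in Gbp2, at 4.59 CPM against 3.11 CPM, and Het 3 stood low in Bst2, at 91.6 CPM against 111 CPM. WT 5 stood high in Usp18, at 12.4 CPM against 8.02 CPM in the next WT library, and in Stat2, at 81.0 CPM against 63.5 CPM.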

How the results depend on the processing

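No member was called in any comparison or in the trend under any alternative run, and every fold change followed for the members with the smallest p kept its direction. The smallest adjusted p of such a member over the alternatives was 0.407 in Homo against WT (Oas3), 0.783 in Het against WT and 0.271 in Homo against Het (Oas1a), the first and the last with DESeq2. The number of Het against WT members above 0, 12 of 34, was 7 with scaling by library total alone and 8 with no filter on low counts, and 7 (without Het 2) to 18 (without Het 3) with a library left out. Over all genes, DESeq2 called 61 in Homo against WT, 32 in Het against WT, 15 in Homo against Het and 54 in the trend, where edgeR called 36, 9, 5 and 30. With no filter on low counts 23 were called in Het against WT, and with only these groups fitted 2 in Homo against Het. With a library left out, the counts of all genes ran from 23 (without Homo 1) to 40, 8 to 11, 4 to 7 and 19 (without WT 1) to 33 in the same order. With the replicate number as a block, 19 genes were called in Homo against WT, 2 in Homo against Het and 11 in the trend, but the numbers do not pair the mice (correlations of same-numbered libraries -0.08 to 0.21). The cause of these shifts was not tested. Low counts limit Oas3, whose lowest library had 19 counts.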
